A study of Mus musculus with 12 samples.

Results

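The genes described here handle the heme and iron that a hematoma releases into brain tissue. They are 10 genes chosen by name, Hmox1, Blvra, Blvrb, Fth1, Ftl1, Slc40a1, Tfrc, Cd163, Bach1 and Hp, and all 10 were found once each by symbol among the 21956 genes of the count table. RNA was sequenced from brain tissue next to the hematoma in 12 mice, 3 in each of the groups Sham-Fabp4fl_fl, Sham-Fabp4CKO, ICH-Fabp4fl_fl and ICH-Fabp4CKO. Intracerebral hemorrhage (ICH) was induced with collagenase injected into the right striatum, and sham mice went through the operation without collagenase. Tissue was taken 48 h after ICH, and the time for sham mice is not given separately. All mice carried floxed Fabp4, the gene of a fatty acid binding protein. The CKO mice also carried a tamoxifen-dependent Cre recombinase (CreERT2) under the promoter of Tmem119, a microglial gene, and received tamoxifen before surgery. Whether Fabp4fl_fl mice also received tamoxifen is not stated, and age and sex are stated for wild-type mice but not for these lines. The deletion is aimed at microglia, whereas the RNA came from all cells of the tissue, so that fewer cells of a type and less RNA per cell cannot be told apart.

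Heme from lysed red cells is cut open by heme oxygenase into biliverdin, carbon monoxide and iron, and biliverdin reductases turn biliverdin into bilirubin. The freed iron is stored inside ferritin shells built of heavy and light chains or leaves the cell through ferroportin, while the transferrin receptor brings iron in. Before it is degraded, free hemoglobin is bound by haptoglobin and taken up by the macrophage receptor CD163. Bach1 is a repressor that heme inactivates, and it competes with NRF2 for the DNA elements of many of these genes.

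Ferritin and transferrin receptor messages carry iron-responsive elements, hairpins with a bulged C and a 6-base loop to which iron regulatory proteins bind when iron is scarce. They are shown because a read count measures only part of this control. Binding near the start of a ferritin message holds back its translation, which a read count does not measure. Binding near the end of the Tfrc message protects it from decay, which acts on the amount of message that is counted. A search of the GENCODE M21 transcripts of these 3 genes (build GRCm38) for the bulged C, 5 bases, the loop and a fully paired 5-base stem found 1 element in the 5′ UTR of Fth1 (chr19:9982733-9982760, plus strand), 1 in the 5′ UTR of Ftl1 (chr7:45459779-45459806, minus strand) and 4 in the 3′ UTR of Tfrc on the plus strand. The Tfrc elements lie at chr16:32631220-32631247, chr16:32631599-32631626, chr16:32631664-32631691 and chr16:32631711-32631738. Transcripts of the other genes of the set, Slc40a1 included, were not searched. Each stretch of 28 bases is written 5′ to 3′ with the loop in capitals.
Fth1: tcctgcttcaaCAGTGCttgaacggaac
Ftl1: tcttgcttcaaCAGTGTttgaacggaac
Tfrc 1: attatcggaagCAGTGCcttccataatt
Tfrc 2: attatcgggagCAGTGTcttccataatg
Tfrc 3: tatatcggagaCAGTGAtctccatatgt
Tfrc 4: attatcgggaaCAGTGTttcccataatt

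The search for DNA elements of Bach1 and NRF2 covered RefSeq windows of 300 bases (build GRCm38.p6, from 250 bases before to 50 after each gene's start), of which 10 windows belonged to 7 of the 10 genes. Windows for Hmox1, Slc40a1 and Hp were not used here. The letters GCTGAGTCA, a Maf recognition element, were in none of the 10 windows on either strand and in 0.454% of all 32851 windows. Sites outside the windows and other spellings of this element were not searched, so that these genes cannot be said to lack it. The looser antioxidant response core TGACNNNGC, which every match of the first motif also holds, was in the window of Blvra and in 12.4% of all windows. The wider iron, heme and antioxidant lists had 87 windows for 56 genes, and 18 of these genes (32.1%) held the core in at least 1 window. This is a share of genes, some with several windows, and cannot be set against the 12.4% of windows. The stretch from Blvra (chr2:127070598-127070626, plus strand) is printed with that from the antioxidant gene Prdx1 (chr4:116685456-116685484, plus strand), which held the Maf recognition element. In both the matched letters, in capitals, read as the core on the opposite strand.
Blvra: cacgggaattGCTCGGTCAaggctccgcc
Prdx1: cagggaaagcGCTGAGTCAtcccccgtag

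Total counts per library ranged from 15650813 to 22406216. Fabp4 itself had 24 to 63 counts in ICH-Fabp4fl_fl mice, 3 to 10 in ICH-Fabp4CKO mice, 1 to 2 in Sham-Fabp4fl_fl mice and 0 in Sham-Fabp4CKO mice, where a count of 0 allows up to 3. Neuronal, astrocyte, oligodendrocyte and microglial markers were present in every group, as brain tissue should have. Several libraries stood apart. ICH-Fabp4CKO mouse 1 had 1 count over the Y-linked genes Ddx3y, Uty, Eif2s3y and Kdm5d, against 1302 to 2251 in the other libraries, as in a female among males. Comparisons that include its group may therefore mix the sexes, and the part of sex was not tested. The summed CPM of 6 choroid plexus and hepatocyte markers was 830.1 to 3089 in Sham-Fabp4fl_fl mice, highest in mouse 3, and 11.9 to 27.1 in the other groups. Mitochondrial genes took 16.3% of counts in ICH-Fabp4fl_fl mouse 1 and 7.90% to 11.9% elsewhere. ICH-Fabp4CKO mouse 2 was unlike mice 1 and 3 of its group. Its summed CPM was 725.1 for 7 monocyte markers against 4189 and 8245, and 3303 for 6 neuronal markers against 1619 and 1235. ICH-Fabp4fl_fl mouse 3 differed from mice 1 and 2 of its group in the same directions. Its sums were 414.5 for the monocyte markers against 1356 and 907.4, and 3224 for the neuronal markers against 1083 and 1596. For the 10 genes, fits without 1 of these mice are given where a call ended or a called value moved by over 1.5 times. Calls of other list genes and of markers are given from fits of all mice only.

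ICH raised most of the heme and iron genes in both genotypes. In Fabp4fl_fl mice 8 of the 10 genes were higher after ICH and none was lower (edgeR's quasi-likelihood test, p adjusted after Benjamini and Hochberg over all genes tested, threshold 0.05), beside 26.2% of all 14719 genes tested that were called higher and 19.3% called lower. The 3 ICH mice lay wholly above or below the 3 sham mice for 8 of the 10 genes, beside 61.8% of all genes. In Fabp4CKO mice the same 8 genes were higher and none was lower, beside 24.5% and 11.1% of 14737 genes, and the groups did not overlap for 9 of 10, beside 62.1%. The genes not called in either genotype were Tfrc and Cd163. The median log2 fold change over the 10 genes was 2.06 in Fabp4fl_fl mice and 2.01 in Fabp4CKO mice, beside 0.02 and 0.01 over all genes tested. The count in Fabp4CKO mice rested on its libraries: it fell to 3 (Hmox1, Ftl1 and Hp) without ICH-Fabp4CKO mouse 1, where the adjusted p was 0.083 for Fth1, 0.074 for Blvrb, 0.0525 for Slc40a1, 0.0513 for Bach1 and 0.123 for Blvra (edgeR). It fell to 1 (Hmox1) without any 1 of the 3 Sham-Fabp4CKO mice, where the genes called higher over the whole table also fell from 3605 to between 701 and 796.

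**Figure D1:**
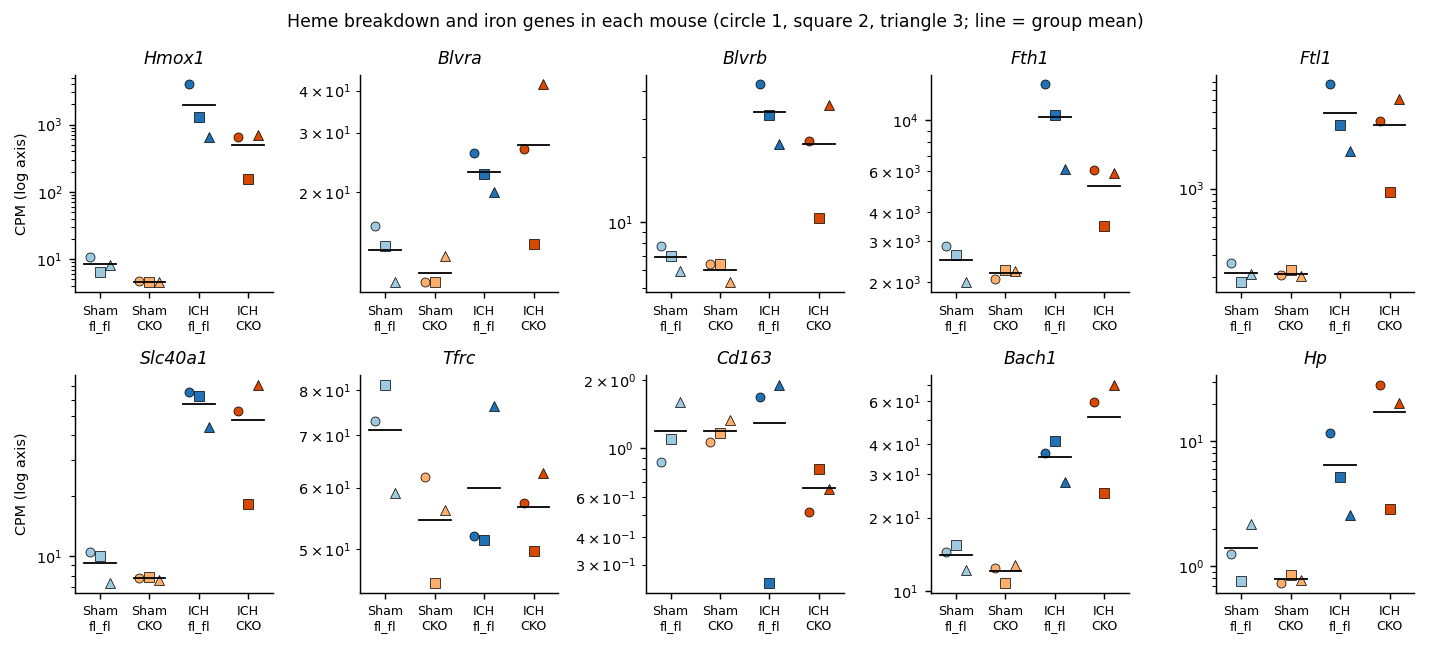
CPM of the 10 genes in each of the 12 mice, 1 panel per gene with its own log axis; circles, squares and triangles are mice 1, 2 and 3 of each group and lines are group means. Hmox1 rises from 4.52 to 10.8 CPM in sham mice to 157.6 to 3949 CPM after ICH, and ICH-Fabp4CKO mouse 2 is the lowest of its group for 9 of the 10 genes, all but Cd163.

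Hmox1 (ENSMUSG00000005413, chr8:75093621-75100589) encodes the inducible heme oxygenase. Its level in CPM, the count scaled to a common library size with TMM factors, was 10.8, 6.41 and 8.16 in Sham-Fabp4fl_fl mice 1 to 3 and 3949, 1281 and 652.1 in ICH-Fabp4fl_fl mice. It was 4.81, 4.52 and 4.55 in Sham-Fabp4CKO mice and 644.8, 157.6 and 710.3 in ICH-Fabp4CKO mice. Every ICH mouse exceeded every sham mouse, the lowest being ICH-Fabp4CKO mouse 2. The log2 fold change was 7.80 (SE 0.79, adjusted p = 0.000558, edgeR's quasi-likelihood test) in Fabp4fl_fl mice, a 222.3-fold difference that ranked 23rd of the 14719 genes, and 6.77 (SE 0.67, adjusted p = 0.00478) in Fabp4CKO mice. Without ICH-Fabp4fl_fl mouse 1, the highest library, the value in Fabp4fl_fl mice was 6.80 on the log2 scale (adjusted p = 0.000654, edgeR). Its constitutive paralog Hmox2 stayed between 73.1 and 105 CPM in all 12 mice. The difference for Hmox2 after ICH was 0.02 on the log2 scale in Fabp4fl_fl mice (adjusted p = 0.929, edgeR) and 0.12 in Fabp4CKO mice (adjusted p = 0.547).

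The biliverdin reductases rose less than Hmox1. Blvrb (ENSMUSG00000040466, chr7:27447978-27466144), which also reduces flavins, was at 7.81, 6.95 and 5.99 CPM in Sham-Fabp4fl_fl mice and 43.1, 31.0 and 22.8 CPM in ICH-Fabp4fl_fl mice. In Fabp4CKO mice it was at 6.42, 6.45 and 5.29 CPM in sham and 23.6, 10.4 and 34.8 CPM after ICH. The sham and ICH mice did not overlap in either genotype, and the log2 fold changes were 2.17 (SE 0.24, adjusted p = 0.00075, edgeR) and 1.92 (SE 0.43, adjusted p = 0.0214). Blvra (ENSMUSG00000001999, chr2:127070665-127097084), the main biliverdin reductase of adult tissue, went from 15.9, 13.8 and 10.8 CPM in Sham-Fabp4fl_fl mice to 26.0, 22.6 and 19.98 CPM after ICH. Fabp4CKO mice went from 10.8, 10.8 and 12.9 CPM to 26.9, 14.0 and 41.7 CPM. The groups did not overlap in either genotype. The log2 fold change was 0.72 (SE 0.18, adjusted p = 0.0173, edgeR) in Fabp4fl_fl mice, the smallest among the 8 genes called there, and 1.26 (SE 0.38, adjusted p = 0.0461) in Fabp4CKO mice. The Blvra calls rested on single mice: in Fabp4fl_fl mice the adjusted p was 0.0548 without Sham-Fabp4fl_fl mouse 3 and between 0.0503 and 0.0676 without any of 3 other mice, and in Fabp4CKO mice it was 0.123 without ICH-Fabp4CKO mouse 1.

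Both ferritin chains rose, the light chain more than the heavy chain. Fth1 (ENSMUSG00000024661, chr19:9980598-9985098) encodes the heavy chain, which oxidises iron as it enters the shell. It stood at 2874, 2622 and 1998 CPM in Sham-Fabp4fl_fl mice and at 14223, 10465 and 6157 CPM in ICH-Fabp4fl_fl mice. The Fabp4CKO values were 2067, 2262 and 2236 CPM in sham and 6112, 3494 and 5908 CPM after ICH. The lowest ICH mouse of each genotype was above the highest sham mouse, and the log2 fold changes were 1.99 (SE 0.35, adjusted p = 0.00442, edgeR) and 1.24 (SE 0.28, adjusted p = 0.021). Ftl1 (ENSMUSG00000050708, chr7:45457944-45459884), the light chain that helps the iron core form, went from 255.8, 181.6 and 210.0 CPM to 6656, 3154 and 1980 CPM in Fabp4fl_fl mice. It went from 209.3, 225.7 and 202.0 CPM to 3424, 931.5 and 5109 CPM in Fabp4CKO mice. The Ftl1 log2 fold changes were 4.13 (SE 0.47, adjusted p = 0.000811, edgeR) and 3.90 (SE 0.63, adjusted p = 0.00963), and the first was 3.54 without ICH-Fabp4fl_fl mouse 1. Together the chains took 0.228% to 0.327% of all counts in sham libraries and 0.450% to 1.88% after ICH, the latter in ICH-Fabp4fl_fl mouse 1.

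The iron exporter rose and the iron importer did not pass the test. Slc40a1 (ENSMUSG00000025993, chr1:45908068-45926523), which encodes ferroportin, was at 10.5, 10.02 and 7.38 CPM in Sham-Fabp4fl_fl mice and 65.6, 62.5 and 43.7 CPM after ICH. Fabp4CKO mice had 7.81, 7.83 and 7.63 CPM in sham and 52.8, 18.2 and 71.2 CPM after ICH. No ICH mouse overlapped a sham mouse, and the log2 fold changes of 2.58 (SE 0.21, adjusted p = 0.00035, edgeR) and 2.61 (SE 0.49, adjusted p = 0.0131) differed by less than either error. Tfrc (ENSMUSG00000022797, chr16:32608920-32632794), the transferrin receptor whose message holds the 4 elements printed above, was at 72.9, 81.2 and 59.1 CPM in Sham-Fabp4fl_fl mice and 52.0, 51.4 and 76.2 CPM after ICH. Fabp4CKO mice had 61.9, 45.3 and 56.1 CPM in sham and 57.3, 49.8 and 62.6 CPM after ICH. The groups overlapped in both genotypes. The log2 difference was -0.28 (95% confidence interval -0.79 to 0.23, adjusted p = 0.319, edgeR) in Fabp4fl_fl mice and 0.06 (-0.33 to 0.45, adjusted p = 0.781) in Fabp4CKO mice. Both intervals lie within a log2 difference of 1, unlike the changes of Slc40a1 and Ftl1. Without ICH-Fabp4fl_fl mouse 3, the only ICH mouse of that genotype inside the sham range, Tfrc was called lower at -0.52 (adjusted p = 0.037).

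Of the hemoglobin scavenger genes, which had few counts in this tissue, Hp was called higher after ICH and Cd163 was not called. Hp (ENSMUSG00000031722, chr8:109575128-109579172), the plasma hemoglobin binder haptoglobin that liver and neutrophils make, had 26, 14 and 42 counts in Sham-Fabp4fl_fl mice and 165, 83 and 48 counts after ICH. As CPM this was 1.25, 0.767 and 2.17 against 11.6, 5.17 and 2.55. Fabp4CKO mice had 0.740, 0.851 and 0.781 CPM in sham and 28.4, 2.88 and 20.2 CPM after ICH. The log2 fold change was 2.14 (SE 0.61, adjusted p = 0.0254, edgeR) in Fabp4fl_fl mice, where ICH mouse 3 lay just above the highest sham mouse, and 4.43 (SE 0.85, adjusted p = 0.0143) in Fabp4CKO mice. The call in Fabp4fl_fl mice was lost without ICH-Fabp4fl_fl mouse 1 (log2 fold change 1.42, adjusted p = 0.0749) and without any of 3 other mice, with adjusted p between 0.0604 and 0.0861. In the fit without Sham-Fabp4fl_fl mouse 3, which had the most choroid plexus and hepatocyte marker counts, the log2 fold change was 2.55 (adjusted p = 0.0352). Mice 1 and 2 of that group also had high sums of these markers (830.1 and 1570 CPM), so that this fit did not remove them.

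Cd163 (ENSMUSG00000008845, chr6:124304656-124330527), the macrophage receptor for haptoglobin-hemoglobin complexes, had only 4 to 36 counts in any library. It was at 0.867, 1.10 and 1.60 CPM in Sham-Fabp4fl_fl mice and 1.69, 0.249 and 1.91 CPM after ICH, so that the sham mice lay inside the range of the ICH mice. In Fabp4CKO mice all 3 ICH values (0.517, 0.799 and 0.656 CPM) were below the 3 sham values (1.06, 1.16 and 1.33 CPM). That difference was -0.84 on the log2 scale (SE 0.31, adjusted p = 0.0724, edgeR) and did not pass the threshold. In Fabp4fl_fl mice it was 0.08 (95% confidence interval -1.47 to 1.64, adjusted p = 0.926). For comparison, 7 genes listed as markers of border-associated macrophages (Mrc1, Lyve1, Cbr2, F13a1, Pf4, Stab1 and Folr2) were summed. Their summed CPM was 13.2 to 23.7 over the 6 sham mice, 175.8 to 523.6 in ICH-Fabp4fl_fl mice and 148.5 to 1693 in ICH-Fabp4CKO mice. Which macrophages expressed them was not tested. Of the 7, 5 were called higher after ICH in Fabp4fl_fl mice and all 7 in Fabp4CKO mice, beside 26.2% and 24.5% of all genes.

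Bach1 (ENSMUSG00000025612, chr16:87698945-87733346), the heme-sensitive repressor, was itself higher after ICH. It was at 14.4, 15.4 and 12.2 CPM in Sham-Fabp4fl_fl mice and 36.9, 41.2 and 27.9 CPM in ICH-Fabp4fl_fl mice. In Fabp4CKO mice it was at 12.4, 10.8 and 12.8 CPM in sham and 59.1, 25.3 and 69.9 CPM after ICH. The groups did not overlap in either genotype, with log2 fold changes of 1.29 (SE 0.18, adjusted p = 0.00165, edgeR) and 2.10 (SE 0.38, adjusted p = 0.0121).

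Markers of other cell types also differed between ICH and sham mice. The counts of markers below stand beside 26.2% of all genes called higher and 19.3% called lower in Fabp4fl_fl mice. In Fabp4CKO mice these shares were 24.5% and 11.1%. Summed CPM of 8 microglial markers was 352.6 to 425.1 in sham mice of both genotypes, 1449 to 1697 in ICH-Fabp4fl_fl mice and 1493 to 4355 in ICH-Fabp4CKO mice, with 7 of 8 called higher in each genotype. All 7 markers of monocytes and monocyte-derived macrophages were called higher in each genotype. Their sum was 24.4 to 64.2 in sham mice, 414.5 to 1356 in ICH-Fabp4fl_fl mice and 725.1 to 8245 in ICH-Fabp4CKO mice, and Chil3 had no count in Sham-Fabp4CKO mice. The 8 neutrophil markers summed to 0.506 to 2.73 in sham mice, 17.6 to 51.4 in ICH-Fabp4fl_fl mice and 18.2 to 234.4 in ICH-Fabp4CKO mice, with Ly6g at 0 in ICH-Fabp4fl_fl mice. Of these 8, 4 were called higher in Fabp4fl_fl and 5 in Fabp4CKO mice. The 7 erythroid markers, a measure of blood RNA, summed to 16.8 to 164.5 in sham mice, 172.2 to 617.8 in ICH-Fabp4fl_fl mice and 119.5 to 1105 in ICH-Fabp4CKO mice, with 3 called higher in Fabp4fl_fl and 0 in Fabp4CKO mice. Of 6 endothelial markers 6 were called higher in Fabp4fl_fl and 2 in Fabp4CKO mice. Of 6 neuronal markers 3 were called lower in Fabp4fl_fl and 0 in Fabp4CKO mice. No neuronal estimate was above 0 in either genotype, and their median log2 fold changes were -0.85 and -1.04. Neuronal sums were 3196 to 4068 in Sham-Fabp4fl_fl and 1083 to 3224 in ICH-Fabp4fl_fl mice. In Fabp4CKO mice they were 3625 to 4658 in sham and 1235 to 3303 after ICH. The 5 astrocyte markers had 3 called higher in each genotype. Sums of 4 oligodendrocyte markers were 6231 to 11003 in Sham-Fabp4fl_fl and 14261 to 23621 in ICH-Fabp4fl_fl mice, with 2 called higher. In Fabp4CKO mice they were 7745 to 8417 in sham and 5623 to 8818 after ICH, with 0 called. Within ICH-Fabp4fl_fl mice Hmox1, Blvra, Blvrb, Fth1, Ftl1, Slc40a1 and Hp were highest in mouse 1 and lowest in mouse 3, as were the monocyte, neutrophil, border macrophage, erythroid, endothelial and oligodendrocyte sums. In ICH-Fabp4CKO mice, mouse 2 was lowest for Hmox1, Blvra, Blvrb, Fth1, Ftl1, Slc40a1, Tfrc, Bach1 and Hp and for the monocyte, neutrophil, border macrophage and microglial sums. The part of cell composition in these changes was not tested.

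Levels can be set between genes only per length of transcript. As CPM per kb of GENCODE exon length, Fth1 was the highest of the 10 genes in all 4 groups, with 1603 ± 289.3 (SD, n = 3) in Sham-Fabp4fl_fl and 6599 ± 2591 (SD, n = 3) in ICH-Fabp4fl_fl mice. Ftl1 was next at 222.9 ± 38.7 and 4060 ± 2513 (SD, n = 3 each). Hmox1 was at 5.39 ± 1.41 CPM per kb in Sham-Fabp4fl_fl mice, below Tfrc (13.7 ± 2.15) and Blvra (10.3 ± 1.92). After ICH it came next after both ferritin chains at 1250 ± 1116 (SD, n = 3), above Hmox2 at 39.9 ± 4.10. After ICH the ranges of Fth1 and Ftl1 overlapped in both genotypes, at 3952 to 9129 and 2046 to 6876 in ICH-Fabp4fl_fl mice and 2243 to 3923 and 962.3 to 5278 in ICH-Fabp4CKO mice. In sham mice of both genotypes they did not. Cd163 was the lowest of the 10 in every group, with means between 0.147 and 0.286 CPM per kb.

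The comparison of genotypes after ICH asked whether deletion of Fabp4 changed these genes in injured tissue. None of the 10 genes passed the threshold in ICH-Fabp4CKO against ICH-Fabp4fl_fl mice, where 0% of the 14600 genes tested were called higher and 0% lower by edgeR's quasi-likelihood test. At an unadjusted p under 0.05 there were 1777 genes, and DESeq2 called 255 higher and 323 lower, none of them among the 10. Fth1 was the 1 gene of the 10 whose groups did not overlap, beside 19.8% of all genes tested. Its highest ICH-Fabp4CKO value, 6112 CPM, was just below the lowest ICH-Fabp4fl_fl value, 6157 CPM. The log2 difference of -0.93 had a 95% confidence interval of -1.93 to 0.08 (adjusted p = 0.436, edgeR) and was -1.06 without ICH-Fabp4CKO mouse 1 and -0.65 without ICH-Fabp4fl_fl mouse 1. Hmox1 was lower by a larger estimate, -1.88 (-3.82 to 0.06, adjusted p = 0.421), but ICH-Fabp4CKO mouse 3 (710.3 CPM) exceeded ICH-Fabp4fl_fl mouse 3 (652.1 CPM). The Hmox1 estimate was -0.90 without ICH-Fabp4fl_fl mouse 1, the library with the most mitochondrial counts. With each mouse left out in turn, the estimate lay between -2.34 and -0.90 for Hmox1 and between -1.22 and -0.65 for Fth1.

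Other genes of the set had estimates on both sides of 0. Hp was at 1.49 (-0.57 to 3.55, adjusted p = 0.523, edgeR) and lay between 0.92 without ICH-Fabp4CKO mouse 1 and 2.19 without ICH-Fabp4fl_fl mouse 1, Bach1 at 0.60 (-0.31 to 1.51, adjusted p = 0.552) and Blvra at 0.33 (-0.59 to 1.24, adjusted p = 0.757). Cd163 was at -0.91 (-2.64 to 0.82, adjusted p = 0.636) and Blvrb at -0.43 (-1.50 to 0.64, adjusted p = 0.724). Ftl1, Slc40a1 and Tfrc were nearer 0, at -0.24 (-1.91 to 1.42), -0.21 (-1.34 to 0.91) and -0.04 (-0.58 to 0.51), with adjusted p from 0.879 to 0.963. Only the Tfrc interval stayed within a log2 difference of 1. For the other genes a change of that size in at least 1 direction remained within the error. Without ICH-Fabp4CKO mouse 2 none of the 10 genes passed either. In that fit Hp was at 2.00 (adjusted p = 0.123, edgeR) and Bach1 at 0.93 (adjusted p = 0.095). Ftl1 and Slc40a1 turned to 0.19 and 0.18, while Hmox1 was at -1.45 and Fth1 at -0.71.

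**Figure D2:**
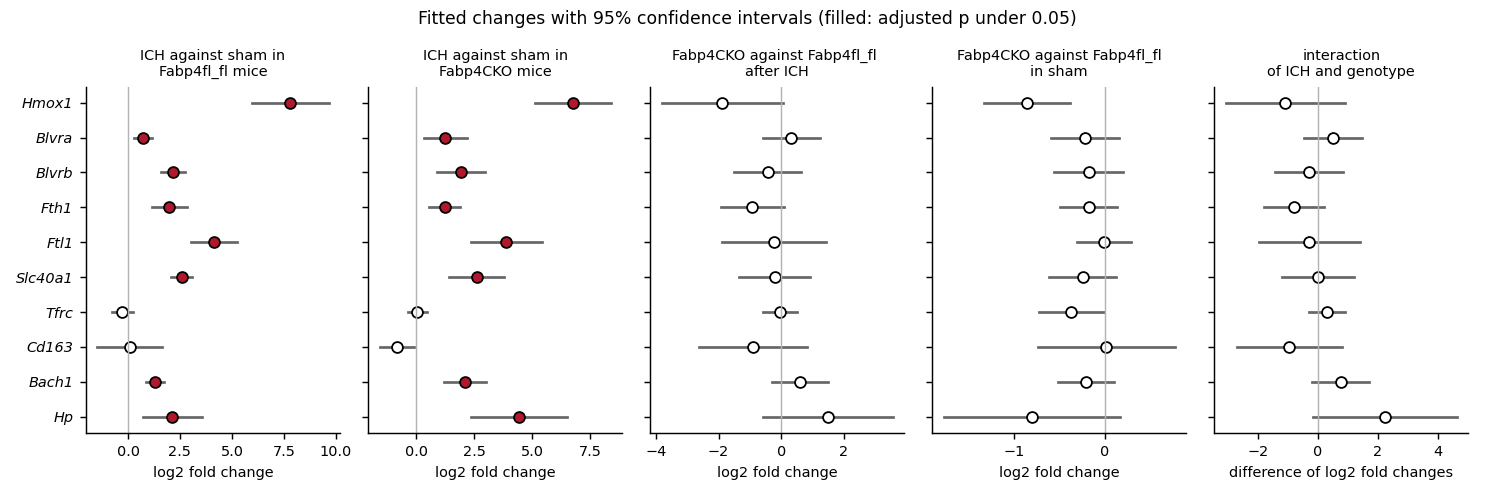
Log2 fold changes of the 10 genes (points) with 95% confidence intervals (bars) from edgeR's quasi-likelihood fit, 1 panel per comparison with its own axis; filled points passed an adjusted p of 0.05. The 8 filled points in each ICH panel are all above 0, and no point is filled in the genotype panels or in the interaction.

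Oligodendrocyte and endothelial markers, like Fth1, were lower in ICH-Fabp4CKO than in ICH-Fabp4fl_fl mice. All 4 oligodendrocyte markers (Mbp, Mog, Mobp and Mag) were lower in ICH-Fabp4CKO mice without overlap, with sums of 23621, 18937 and 14261 CPM in ICH-Fabp4fl_fl mice and 8818, 8763 and 5623 CPM in ICH-Fabp4CKO mice. All 6 endothelial markers were lower without overlap too, with sums of 1152, 743.7 and 552.4 CPM against 371.9, 310.0 and 315.7 CPM. Over all genes tested, these groups did not overlap for 19.8%, in either direction. None of these 10 markers was called by edgeR's quasi-likelihood test, as no gene was. Trf, the transferrin gene that oligodendrocytes express, was at 4795, 5054 and 2792 CPM in ICH-Fabp4fl_fl mice and 2493, 1371 and 1678 CPM in ICH-Fabp4CKO mice, again without overlap. Within the ICH-Fabp4CKO group the endothelial sums ordered the mice as Fth1 did, but the oligodendrocyte sums did not. Fth1 was lowest in mouse 2 (3494 CPM), whereas the oligodendrocyte sum was lowest in mouse 3, where Fth1 was at 5908 CPM. In Fabp4CKO mice Fth1 was also called higher after ICH, while 0 oligodendrocyte markers were. Whether the oligodendrocyte and endothelial content carried the Fth1 difference was not tested. The neutrophil sums, of cells that express Hp, were 51.4, 29.5 and 17.6 CPM in ICH-Fabp4fl_fl mice 1 to 3 and 132.7, 18.2 and 234.4 CPM in ICH-Fabp4CKO mice 1 to 3. The monocyte and border macrophage sums ordered the mice of each ICH group in the same way. The lowest Hp value of each ICH group was in the mouse with the lowest of all 3 sums, although ICH-Fabp4CKO mouse 1 had more Hp and a smaller neutrophil sum than mouse 3. The part of these cells in the Hp values was not tested.

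**Figure D3:**
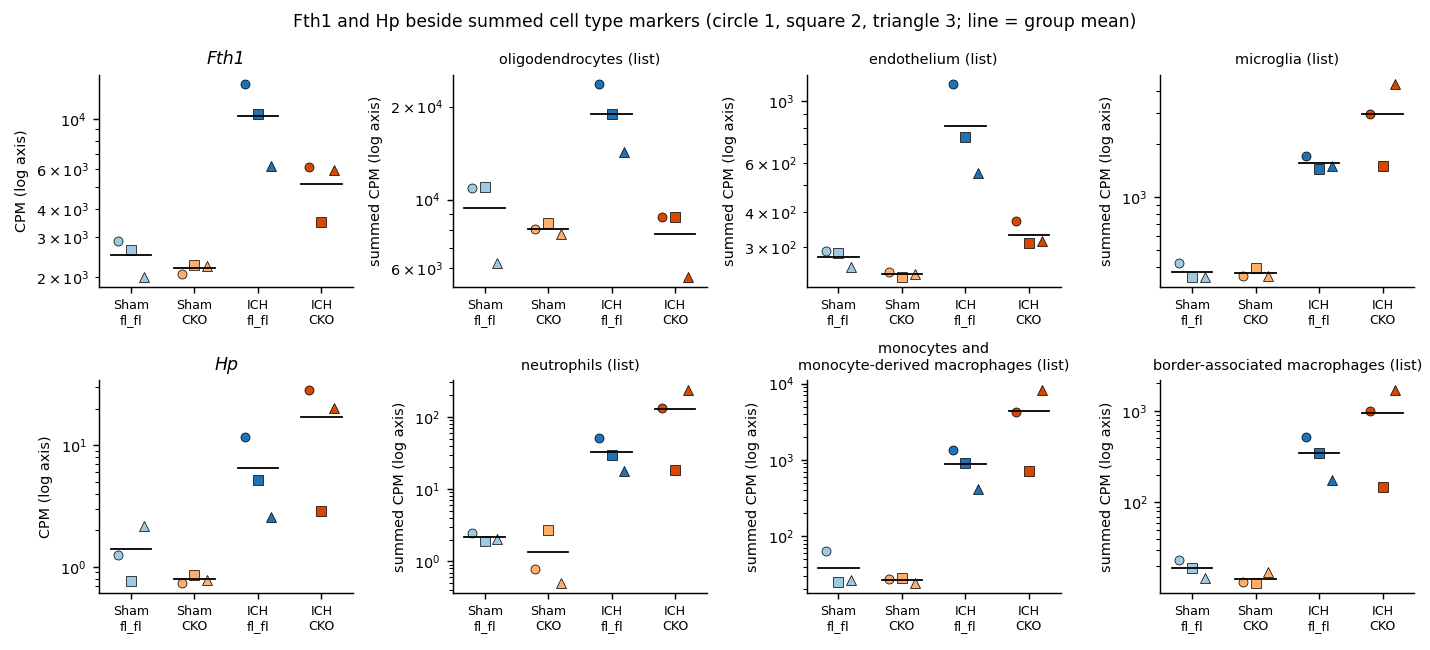
Fth1 and Hp in CPM beside the summed CPM of 6 cell type marker lists in each mouse (log axes; circles, squares and triangles are mice 1, 2 and 3 of each group, lines are group means). Fth1, oligodendrocyte and endothelial values of ICH-Fabp4CKO mice lie below those of ICH-Fabp4fl_fl mice, whereas Hp and the neutrophil, monocyte and border macrophage sums overlap between the ICH groups.

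The same comparison was made in sham mice. None of the 10 genes was called in Sham-Fabp4CKO against Sham-Fabp4fl_fl mice, beside 0% of the 14395 genes tested called higher and 0.111% called lower. Hmox1 was the 1 gene of the 10 without overlap, beside 14.8% of all genes: its 3 Sham-Fabp4CKO values, 4.52 to 4.81 CPM, were all below 6.41 CPM, the lowest Sham-Fabp4fl_fl value. The log2 difference was -0.86 (95% confidence interval -1.33 to -0.38, adjusted p = 0.341, edgeR's quasi-likelihood test). The call depended on the test, with adjusted p of 0.0413 from DESeq2 and 0.038 from edgeR's exact test. Choroid plexus and hepatocyte sums were 830.1 to 3089 CPM in all 3 Sham-Fabp4fl_fl mice and 22.5 to 27.1 CPM in Sham-Fabp4CKO mice. Endothelial sums were 253.9 to 290.2 CPM against 234.3 to 243.1 CPM, with 4 of 6 markers not overlapping. Their part in the Hmox1 difference was not tested. The other 9 log2 differences lay between -0.81 for Hp and 0.01 for Cd163. Without Sham-Fabp4fl_fl mouse 3, the mouse with the most choroid plexus and hepatocyte marker counts, Hmox1 (-0.88, adjusted p = 0.0253), Fth1 (-0.31, adjusted p = 0.0218) and Tfrc (-0.49, adjusted p = 0.0292) were called lower, and over all genes 1531 were called higher and 1331 lower, against 0 and 16.

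The interaction asked whether the response to ICH differed between genotypes. None of the 10 genes passed, beside 0.0133% of the 15089 genes tested called with a larger response in Fabp4CKO mice and 0.00663% with a smaller one. The largest estimate was that of Hp, 2.23 on the log2 scale (95% confidence interval -0.17 to 4.63, adjusted p = 0.533, edgeR), and 1.69 without ICH-Fabp4CKO mouse 1. Hmox1 was at -1.09 (-3.09 to 0.91, adjusted p = 0.718), and its estimate was -0.041 without ICH-Fabp4fl_fl mouse 1. With each mouse left out in turn the Hmox1 estimate lay between -1.50 and -0.041. Fth1 was at -0.80 (-1.80 to 0.20, adjusted p = 0.586). Bach1 was at 0.76 (-0.19 to 1.71, adjusted p = 0.586) and passed the threshold only without ICH-Fabp4CKO mouse 2, at 1.09 (adjusted p = 0.0465). Without that mouse 260 genes were called with a larger response and 111 with a smaller one, against 2 and 1 with it. Slc40a1 was at -0.01 (-1.22 to 1.19, adjusted p = 0.997), and the sign of this value turned under RLE scaling, with DESeq2 and without a filter on low counts.

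Ratios of counts within a library do not depend on its depth or scaling, and the constant part that gene length adds cancels between groups. The count ratio of Fth1 to Ftl1 was 9.51 to 14.4 in Sham-Fabp4fl_fl mice and 2.14, 3.32 and 3.11 in ICH-Fabp4fl_fl mice. It was 9.88 to 11.1 in Sham-Fabp4CKO mice and 1.79, 3.75 and 1.16 in ICH-Fabp4CKO mice. The ratio was 4.12 times lower after ICH in Fabp4fl_fl mice and 5.21 times lower in Fabp4CKO mice, without overlap. The exact two-sided permutation p was 0.1 for each, the smallest that 3 mice against 3 allow, and 0.133 after Benjamini-Hochberg adjustment over the 12 ratio tests.

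The count ratio of Blvra to Blvrb was 1.81 to 2.03 in Sham-Fabp4fl_fl mice and 0.605, 0.730 and 0.874 in ICH-Fabp4fl_fl mice. It was 1.67 to 2.43 in Sham-Fabp4CKO mice and 1.14, 1.34 and 1.20 in ICH-Fabp4CKO mice. It was 2.66 times lower after ICH in Fabp4fl_fl mice and 1.55 times lower in Fabp4CKO mice, without overlap (exact permutation p = 0.1 each, adjusted 0.133). The 2 ICH groups did not overlap either, with a ratio 1.68 times higher in ICH-Fabp4CKO mice (exact permutation p = 0.1, adjusted 0.133). This was the case although neither gene was called between the ICH groups and both genes overlapped there. The sham groups overlapped (exact permutation p = 1.0).

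The count ratio of Hmox1 to Hmox2 was 0.119, 0.0775 and 0.109 in Sham-Fabp4fl_fl mice and 41.6, 16.6 and 7.576 in ICH-Fabp4fl_fl mice. It was 0.0613, 0.0518 and 0.0597 in Sham-Fabp4CKO mice and 7.550, 2.16 and 6.79 in ICH-Fabp4CKO mice. The ICH groups missed overlapping only by 7.550 against 7.576, and Hmox1 in CPM did overlap. The ratio was 173.3-fold higher after ICH in Fabp4fl_fl mice and 83.5-fold higher in Fabp4CKO mice. It was 3.61 times lower in ICH-Fabp4CKO than in ICH-Fabp4fl_fl mice and 1.74 times lower in Sham-Fabp4CKO than in Sham-Fabp4fl_fl mice. None of these 4 comparisons had overlapping groups, and each exact permutation p was 0.1 (adjusted 0.133). Without ICH-Fabp4fl_fl mouse 1 the log2 difference between the ICH groups was -1.22 (exact permutation p = 0.4), against -1.85 with it. With each mouse left out in turn it lay between -2.45 and -1.22.

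**Figure D4:**
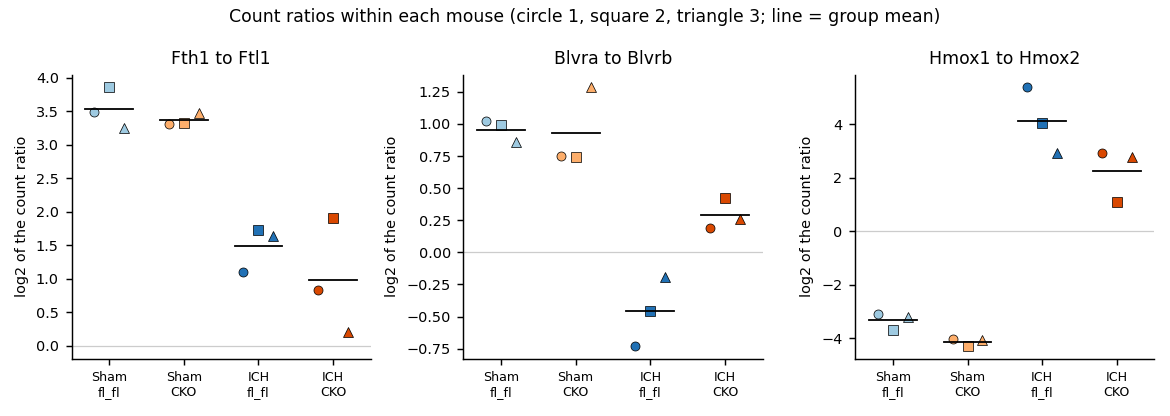
Log2 of the count ratios Fth1 to Ftl1, Blvra to Blvrb and Hmox1 to Hmox2 in each mouse (circles, squares and triangles are mice 1, 2 and 3 of each group, lines are group means). The first 2 ratios fall with ICH and the third rises, and for Blvra to Blvrb the 3 ICH-Fabp4CKO mice lie above the 3 ICH-Fabp4fl_fl mice.

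The wider heme and iron pathways were read from lists that held 60 further genes. Of these, 28 of 57 tested were higher and 2 lower after ICH in Fabp4fl_fl mice, beside 26.2% and 19.3% of all genes tested. In Fabp4CKO mice 26 of 58 tested were higher and 1 lower, beside 24.5% and 11.1%. Their median log2 fold changes were 0.58 and 0.61, beside 0.02 and 0.01 over all genes. Between the genotypes after ICH none of 58 was called, and in sham none of 56. The calls of these lists were not followed with mice left out. Over all genes, those called higher in Fabp4CKO mice fell from 3605 to 1435 without ICH-Fabp4CKO mouse 1.

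In scavenging and heme transport, 7 of 9 genes were higher after ICH in Fabp4fl_fl mice and 6 of 9 in Fabp4CKO mice. Over all genes tested the shares called higher were 26.2% and 24.5%. Abcg2, an exporter that carries porphyrins, had log2 fold changes of 1.38 and 1.10 in Fabp4fl_fl and Fabp4CKO mice. Flvcr2, a transporter of endothelium, was higher in Fabp4fl_fl mice at 1.41 (adjusted p = 0.00407, edgeR) and stood at 0.09 in Fabp4CKO mice (adjusted p = 0.727). The difference between these responses was -1.36 (adjusted p = 0.207, edgeR interaction) and did not pass. Slc48a1, which moves heme out of lysosomes, was higher in Fabp4fl_fl mice (0.70) and stood at 0.22 in Fabp4CKO mice (adjusted p = 0.166, edgeR). The interaction was -0.53 (adjusted p = 0.429, edgeR). Slc46a1, a folate and heme carrier, was higher in both, by 0.59 and 1.12.

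Among 15 genes of iron import and reduction, 8 were higher in each genotype, beside 26.2% of all genes in Fabp4fl_fl and 24.5% in Fabp4CKO mice. Slc11a1, the iron transporter of phagosomes, had log2 fold changes of 4.58 and 5.16. The ferrireductases were at 2.44 and 2.35 for Steap3, 1.68 and 2.39 for Cybrd1 and 4.59 and 6.33 for Steap4. Steap2 was lower, at -1.16 and -0.98. Steap1 was lower at -2.87 in Fabp4fl_fl mice (adjusted p = 0.0131, edgeR), whose sham mice had the high choroid plexus marker sums, and at 0.84 in Fabp4CKO mice (adjusted p = 0.255).

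Of the 4 tested genes of iron export, 3 were higher in each genotype: Slc40a1, Hfe (2.16 and 3.10) and Cp, the ceruloplasmin that oxidises exported iron (2.72 and 2.96). Lcn2, which binds bacterial iron carriers, rose by 6.55 and 7.20. In heme synthesis 1 of 8 genes was higher in each genotype, Ppox (0.85) in Fabp4fl_fl mice and Alas1 (0.69) in Fabp4CKO mice. The shares of all genes called higher were 26.2% in Fabp4fl_fl and 24.5% in Fabp4CKO mice. The iron sensor Aco1 was higher in both (0.58 and 0.60), and Ireb2 (0.42) in Fabp4CKO mice. Of the ferritin chaperones only Pcbp2 was called, at 0.45 in Fabp4CKO mice.

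Of the 8 genes for Bach1, NRF2 and small Maf factors, Bach1 included, 4 were higher in each genotype, with log2 fold changes of 1.95 and 2.81 for Nfe2l2, which encodes NRF2, and 3.31 and 3.33 for Maff. Of the 10 antioxidant genes listed under NRF2 and Bach1, 6 were higher in Fabp4fl_fl mice, beside 26.2% of all genes. In Fabp4CKO mice 3 were higher, a share near the 24.5% of all genes, and 0 of 10 were called for the interaction. The 3 were Osgin1 (3.49 and 3.48), Prdx1 (1.75 and 1.37) and G6pdx (0.91 and 0.77). Nqo1, a classical target of NRF2, was at -0.22 (adjusted p = 0.38, edgeR) and 0.15 (adjusted p = 0.625).

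**Figure D5:**
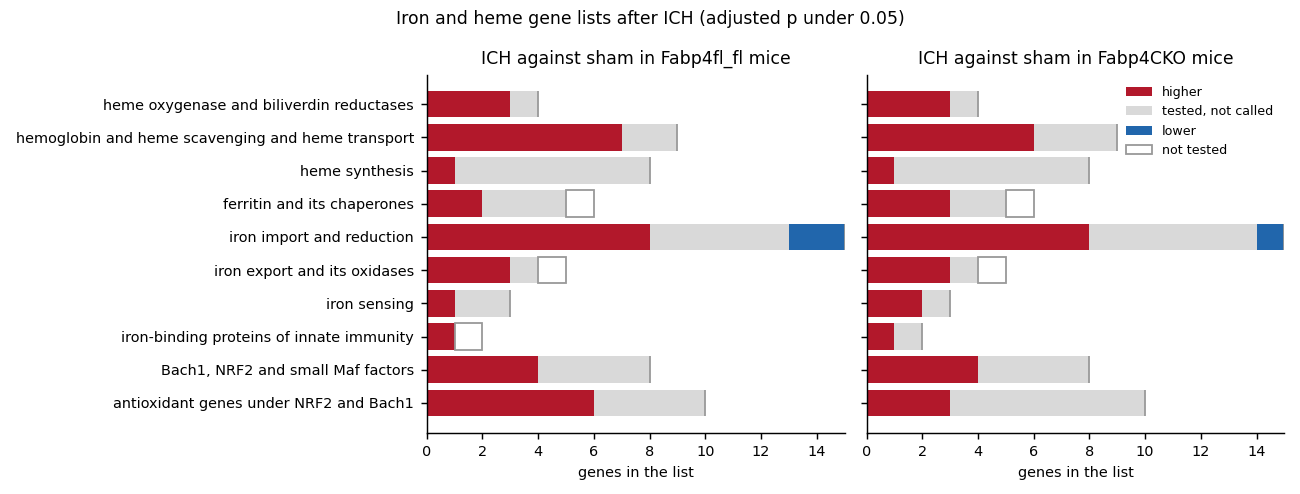
Number of genes called higher, called lower, tested but not called and not tested in each of 10 heme, iron and antioxidant lists, for ICH against sham in each genotype (edgeR's quasi-likelihood test, adjusted p under 0.05). Iron import and reduction has 8 genes higher in each genotype, and scavenging and heme transport has 7 in Fabp4fl_fl and 6 in Fabp4CKO mice. Over all genes tested 26.2% and 24.5% were called higher.

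The genes closest in pattern were found by the mean absolute difference of centred log2 CPM over the 12 libraries, among 15089 genes. For Hmox1 they were Selp, Ccl2 and Cyp4f18, at 0.48 to 0.50, where the median gene was at 3.47. For Fth1 they were Cavin1, Smtn and Cav1, at 0.08 to 0.15 beside a median of 0.87. For Ftl1 they were Tagln2, Slc16a3 and Eif4ebp1, at 0.13 to 0.17 beside 1.89. For Slc40a1 they were Bak1, Pla2g4a and Rhoc at 0.14 to 0.15, and for Bach1 Rest, Cflar and Ifngr1 at 0.12. Blvrb was nearest to Grap, Pnp and Myl12a at 0.10 to 0.11, and Blvra to Cdc42, Wdr1 and Idh1 at 0.11. Hp and Cd163 had looser neighbours. Hp was nearest to Prss46, Il36g and Cdk6 at 0.34 to 0.36, and Cd163 to Tmem17, Gm715 and Alkbh7 at 0.29 to 0.31. Tfrc, which varied least with an SD of 0.26 over the 12 libraries, was nearest to Borcs7, Gm14410 and Nars at 0.13. None of the 10 genes was among the 3 nearest of another.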

How the data were processed

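Poly(A) RNA was sequenced from 12 mice, 3 per group. The authors deposited estimated counts (expected counts) per gene without normalization. Per the labels their processing named Bowtie2 2.2.8, HISAT2, StringTie 1.3.1 and DESeq2, without roles. The counting tool and genome build are not given in the sources used here, so that coordinates come from GENCODE M21 (GRCm38) by Ensembl identifier.

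Counts were rounded. The tests ran in edgeR 4.0.16 under R 4.3.3 (TMM scaling, filterByExpr at 10 counts and a total of 15, quasi-likelihood F-test, Benjamini-Hochberg adjustment over all genes tested, threshold 0.05) on the groups compared, or on all 12 libraries for the interaction. All 10 genes passed the filter in every comparison. The test was tested on simulated data. Ratios were compared by exact permutation tests. Floors (3 counts) cover counting error only. P-values measure the spread between these mice, each 1 library. No library was a copy of another of its group, and this check was not run between groups.

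The genes, lists and markers were chosen with earlier results of these data known. From the lists, 1 pathway gene and 1 marker are not reported here and entered no count or sum of a list. Named from each list and comparison were up to 3 called genes per direction with the smallest adjusted p, and for each of the 10 genes its 3 nearest in pattern. Hmox2, Trf, Nqo1 and the genes compared beside a result were named after their values were seen. The alternatives tried were each mouse left out, RLE scaling or total counts, the exact test of edgeR, DESeq2 1.42.0, a filter of 10 counts per library or none, a joint fit of the 12 libraries, a replicate block, and summed ferritin copies. Python 3.11.15 and matplotlib 3.10.9 were used.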

Additional observations from a re-analysis of the deposited data

How the results depend on the processing

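With 3 mice per group, single libraries set most limits, and the counts of genes between genotypes depend on the test. Genes lower after ICH in Fabp4CKO mice numbered 3541 with DESeq2 and 2558 with all 12 libraries in one fit, against 1642. Between genotypes after ICH, genes higher and lower numbered 255 and 323 with DESeq2, 129 and 136 with edgeR's exact test and 154 and 208 with all 12 libraries in one fit, against 0 and 0. In sham they numbered 11 and 139 with DESeq2 and 9 and 142 with the exact test, of which 1 lower was Hmox1, and 2 were lower with at least 10 counts in every library. For the interaction they numbered 183 and 83 with DESeq2, and 1 was higher with at least 10 counts in every library. Correlations between the deviations of same-numbered mice ranged from -0.575 to 0.311. For ICH against sham in Fabp4fl_fl mice all were positive (0.196, 0.023 and 0.127), with a mean of 0.115 beside -0.0571 for other pairs. In each other comparison the mean of same-numbered mice was below that of other pairs. With 3 mice per group these values cannot settle whether the replicate numbers pair the mice, and the main fits left them unpaired. With the replicate block the interaction had 1 gene higher and 0 lower, and Blvra in Fabp4CKO mice missed the threshold (adjusted p = 0.0548, edgeR). With all 12 libraries in one fit Blvra missed it in Fabp4fl_fl mice (adjusted p = 0.0669).

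Signs turned for these log2 differences: Cd163 after ICH in Fabp4fl_fl mice with the replicate block (-0.12), Tfrc after ICH in Fabp4CKO mice with total counts (-0.034), Ftl1 in sham with the replicate block (0.00026), Cd163 in sham with total counts (-0.016), and the Slc40a1 interaction with RLE scaling (0.051), DESeq2 (0.051) and no filter (0.035). The causes were not tested. Summing the ferritin copies changed no sign or call.

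Leaving out each mouse in turn gave these ranges. After ICH in Fabp4fl_fl mice 1465 to 3856 genes and 0 to 1 of the 10 were lower, and Cd163 lay between -0.38 and 0.53. After ICH in Fabp4CKO mice 701 to 5203 genes and 1 to 8 of the 10 were higher, 50 to 4896 genes were lower, and Tfrc lay between -0.062 and 0.16. Between genotypes after ICH 0 to 2 genes were higher, and Blvra lay between -0.11 and 0.64, Ftl1 between -0.78 and 0.33, Slc40a1 between -0.63 and 0.18 and Tfrc between -0.15 and 0.17. In sham 0 to 1531 genes were higher, 0 to 1331 genes and 0 to 3 of the 10 were lower, Ftl1 lay between -0.12 and 0.12, Cd163 between -0.19 and 0.29 and the log2 ratio of Blvra to Blvrb between -0.21 and 0.062. For the interaction 0 to 260 genes and 0 to 1 of the 10 were higher and 0 to 111 genes were lower, and Blvrb lay between -0.73 and 0.050, Ftl1 between -0.83 and 0.35 and Slc40a1 between -0.43 and 0.38. The other differences of the 10 genes kept their sign.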
